A study of Mus musculus with 4 samples.

Results

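The potassium channel genes of cultured mouse hippocampal neurons were described here, taken as every listed gene whose symbol starts with Kcn. The authors' tables list 95 such symbols, each on 1 row and none marked as failed, and 63 of them reached an FPKM of at least 1 in at least 1 of the 4 libraries. These 63 genes, the members, are set beside the 13457 genes of all kinds that passed the same filter. FPKM is the number of fragments per kilobase of transcript, scaled to the size of the library, so levels can be set beside each other between genes. All cultures came from the hippocampus of CD1 pups on the day of birth (P0), were infected with a lentivirus on day 4 in vitro and were harvested on day 11. The 4 conditions, with 1 library each, were a Kdm6b shRNA lentivirus with Bic/4AP, the Kdm6b shRNA lentivirus untreated, the empty pLKO.1 lentivirus (vector) with Bic/4AP, and the vector untreated. Bic/4AP is bicuculline, labelled 50 µm and read here as micromolar, with 2.5 mM 4-aminopyridine for 3 h. The labels name 1 hairpin and do not say how many pups or cultures went into a library.

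Potassium channels let potassium leave or enter the cell and so set the resting potential, end the action potential and govern how often a neuron fires. The pore of a voltage-gated channel is built by 4 subunits of the Kcna, Kcnb, Kcnc, Kcnd, Kcnh or Kcnq subfamilies, to which modifier and accessory subunits are added. Other subfamilies open with internal calcium or sodium, pass current mainly inward, or carry the leak at rest through tandem pores. 4-aminopyridine blocks voltage-gated potassium channels, Kcna and Kcnc types most readily, so several members encode targets of the treatment itself, while bicuculline removes inhibition through GABA-A receptors. Kdm6b removes methyl groups from lysine 27 of histone H3, a mark of Polycomb silencing.

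With 1 library per condition no difference was tested, and no p-value is given. Differences are in log2(FPKM + 1), the first-named condition minus the second, and a gene is counted as 1.5-fold or 2-fold apart where that difference reaches the log2 of 1.5 or of 2. This scale understates differences of weakly expressed genes, so ratios of FPKM are given for some. The bounds printed with a value are the authors' lower and upper limits, which cover counting and read assignment in 1 library and not the variation between cultures. The tables hold no read totals. For a member the median distance to the upper bound was between 6.56% and 8.28% of its FPKM, depending on the library, so the precision was alike. The label checks were as follows. Kdm6b stood at 4.83 FPKM with Bic/4AP and 2.73 untreated in shRNA cultures, and at 13.1 with Bic/4AP and 6.74 untreated in vector cultures. All 10 immediate-early genes of a check list were 2-fold higher with Bic/4AP in both kinds of culture. Of the marker lists, all 8 excitatory neuron genes, all 12 inhibitory neuron genes and all 8 astrocyte genes passed the filter, but only 6 of 8 microglia, 5 of 8 oligodendrocyte lineage, 4 of 5 fibroblast and 2 of 8 endothelial and mural genes did. The cultures thus held neuron and astrocyte RNA, and a lower level can mean fewer cells of a type or less RNA per cell, which cannot be told apart here.

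Levels differed widely between members. Kcnj10, an inward rectifier best known from astrocytes, was far above the rest at 232 FPKM with Bic/4AP and 223 untreated in shRNA cultures, and at 233 with Bic/4AP and 214 untreated in vector cultures. Next came Kcnk1, a tandem-pore leak channel, at 39.6 FPKM with Bic/4AP and 51.9 untreated in shRNA cultures, and at 42.8 with Bic/4AP and 50.6 untreated in vector cultures. The median member stood between 4.89 and 6.53 FPKM, depending on the library. By mean level over the libraries, 29 members lay under 5 FPKM, 28 from 5 to 20 and 6 at 20 or above. Of the 63 members, 54 reached an FPKM of 1 in all 4 libraries, 3 in 3, 3 in 2 and 3 in 1. The 3 last were Kcnk5 (vector with Bic/4AP), Kcnj13 and Kcnn4 (both shRNA untreated). Just inside the limit lay Kcnk5, whose highest value was 1.09, and Kcnj13, whose highest value was 1.11. Just outside lay Kcnrg at 0.917, the antisense transcript Kcnq1ot1 at 0.860 and Kcna5 at 0.839. The loci of 9 members overlap another listed gene, among them Kcnh3, Kcnip1, Kcnmb4, Kcnd3, Kcnn2 and Kcnj13, and the labels do not say whether counting used strand, so their reads cannot be told from the partner's.

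**Figure D1:**
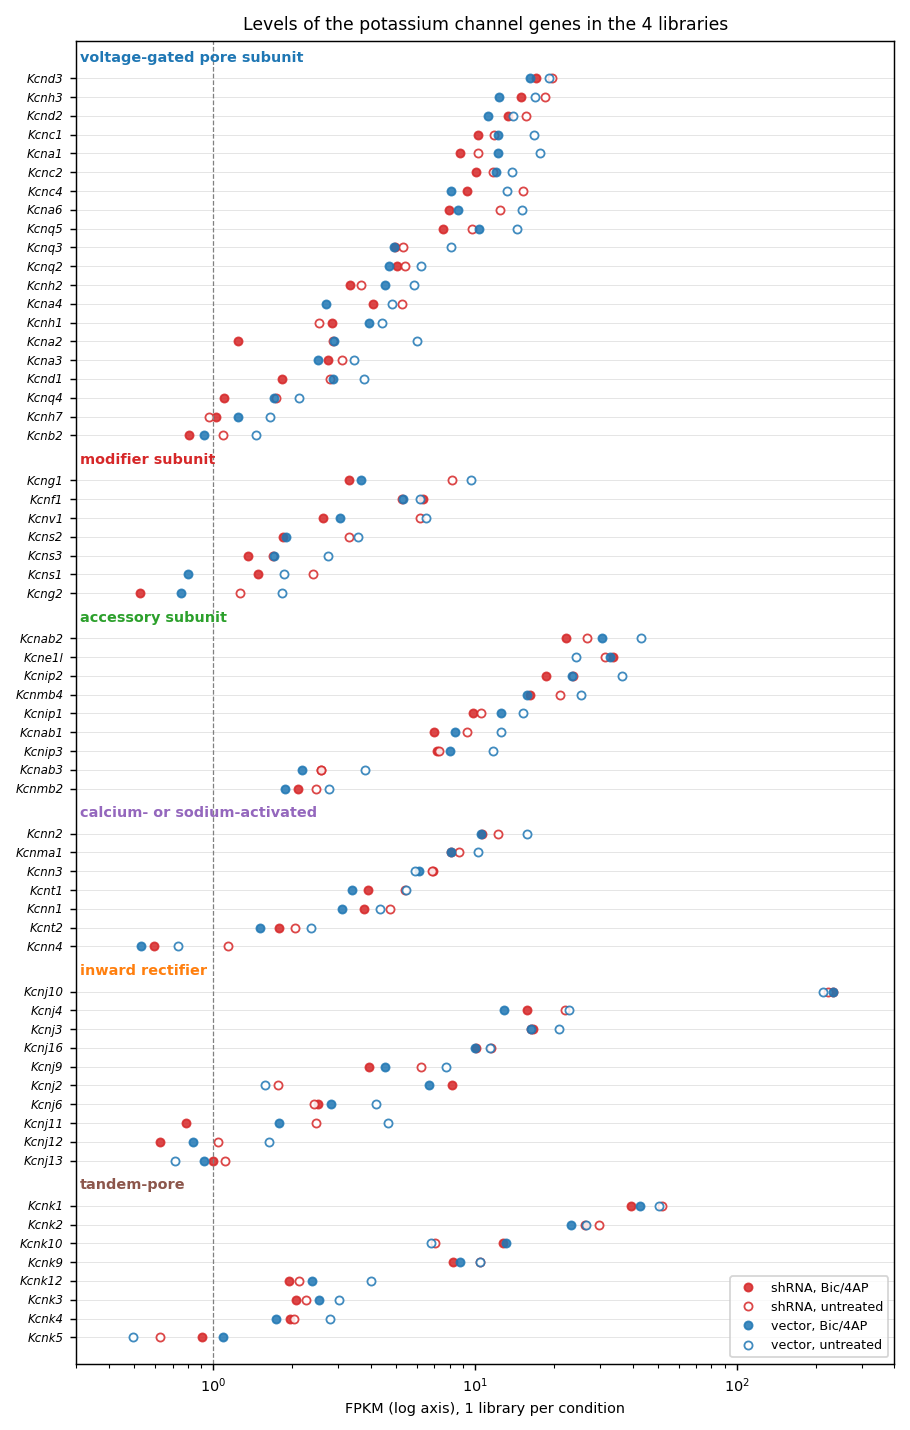
FPKM of the potassium channel genes reported here (log axis), 1 row per gene and 1 point per library, grouped by role and ordered by mean level. Filled points are Bic/4AP and open points untreated, red is shRNA and blue is vector; the dashed line marks the FPKM of 1 used for selection. Most filled points lie left of the open point of the same colour, and Kcnj2 and Kcnk10 show the opposite order.

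With Bic/4AP most potassium channel genes stood lower than in untreated cultures of the same kind, in both kinds. In shRNA cultures 51 of 63 members lay below 0 and 12 above, against 65.2% and 34.8% of all genes. In vector cultures 56 lay below 0 and 7 above, against 59.4% and 40.6% of all genes. The median member difference was -0.19 in shRNA cultures (all genes -0.08) and -0.39 in vector cultures (all genes -0.07). In shRNA cultures 6 members were 1.5-fold lower, 9.52% of members against 2.50% of all genes. In vector cultures 16 were 1.5-fold lower, 25.4% of members against 3.61% of all genes. With a pseudocount of 5 in place of 1, 1 member in shRNA cultures and 2 in vector cultures were 1.5-fold lower. The share of all genes was not computed at a pseudocount of 5, so these counts cannot be set beside the shares above. On the higher side stood the same number in each, 2 of 63 members at least 1.5-fold higher, with 4.19% of all genes in shRNA cultures and 4.95% in vector cultures. A difference of 2-fold was reached by Kcng1 on the lower side in shRNA cultures (0.156% of all genes) and by Kcng1 and Kcnj11 in vector cultures (0.268%). Kcnj2 was 2-fold higher in both, beside 2.06% of all genes in shRNA cultures and 2.18% in vector cultures.

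In vector cultures members 1.5-fold lower with Bic/4AP were found at low, middle and high levels. Among genes under a mean of 5 FPKM, 4 of 29 members were 1.5-fold lower in shRNA cultures (all genes 3.44%) and 8 of 29 in vector cultures (4.93%). From 5 to 20 FPKM the counts were 2 of 28 in shRNA cultures (3.33%) and 7 of 28 in vector cultures (4.45%). At 20 FPKM and above they were 0 of 6 in shRNA cultures (0.891%) and 1 of 6 in vector cultures (1.7%), Kcnip2. The authors' bounds were apart with the Bic/4AP value lower for 36 members in shRNA cultures, against 37.3% of all genes, and for 51 in vector cultures, against 36.4%. It was higher for 5 members in each, against 16.9% of all genes in shRNA and 21.5% in vector cultures. Neuron markers differed too: the 8 excitatory markers summed to 420 FPKM with Bic/4AP and 478 untreated in shRNA cultures, and to 481 with Bic/4AP and 662 untreated in vector cultures. The 12 inhibitory markers summed to 844 with Bic/4AP and 576 untreated in shRNA cultures, and to 1182 with Bic/4AP and 1186 untreated in vector cultures. The median difference of the excitatory markers was -0.07 in shRNA cultures (5 of 8 lower) and -0.27 in vector cultures (6 of 8 lower), and that of the inhibitory markers 0.36 (3 of 12 lower) and -0.01 (6 of 12 lower). Their part in the potassium channel differences was not tested. The shRNA and vector responses share no library. Of the 63 members, 50 were lower in both (79.4%), 6 higher in both (9.52%) and 7 of opposite sign (11.1%), against 53.0%, 28.3% and 18.7% of all genes. All 6 members that were 1.5-fold lower in shRNA cultures were also among the 16 in vector cultures, namely Kcng1, Kcnv1, Kcnj11, Kcna2, Kcnc4 and Kcns2. The same overlap was not counted over all genes, so it cannot be called particular to the members. Across the 63 members the responses were related with r = 0.87 (Pearson) and rho = 0.67 (Spearman), and r was 0.80 without Kcnj2. Across all genes r was 0.88 and rho 0.80. These points share their 4 libraries and genes are not replicates, so the correlation is a description.

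**Figure D2:**
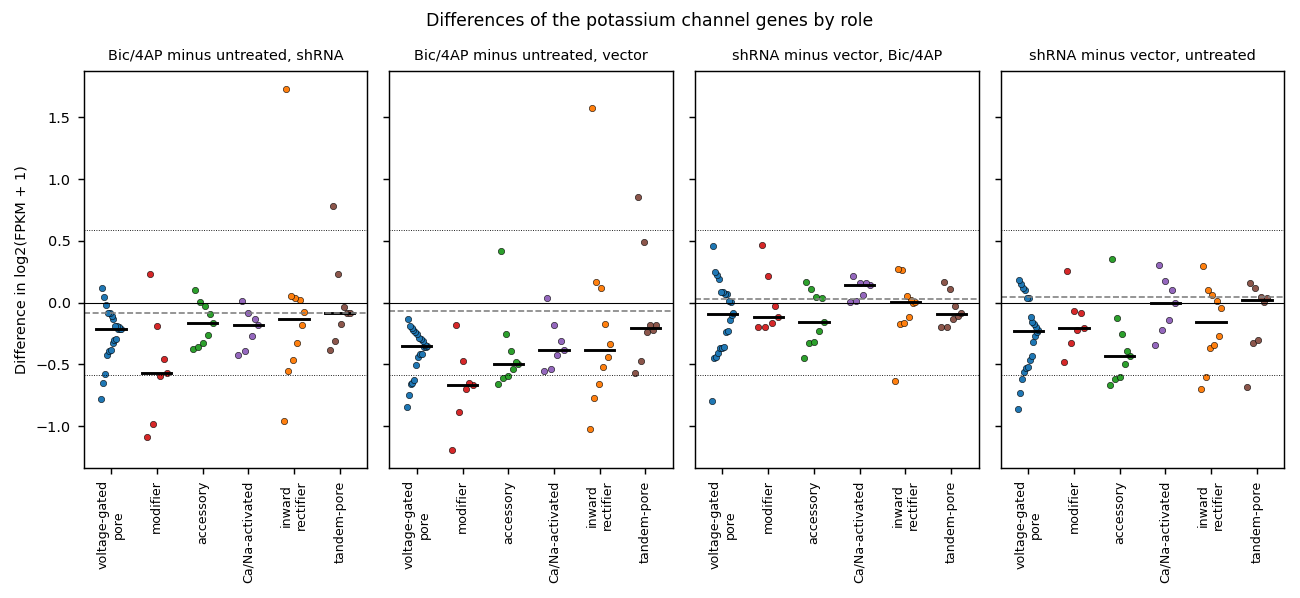
Differences in log2(FPKM + 1) of the 63 potassium channel genes by role, 1 point per gene, in the 4 comparisons. Black bars are role medians, the dashed line is the median of all 13457 genes, and dotted lines mark 1.5-fold. The modifier subunits have the lowest medians with Bic/4AP, -0.57 in shRNA and -0.67 in vector cultures, and the accessory subunits the lowest with the hairpin untreated, -0.43.

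Among the 22 voltage-gated pore genes, 20 lay below 0 with Bic/4AP in shRNA cultures and all 22 in vector cultures. The medians were -0.21 in shRNA cultures and -0.35 in vector cultures, with 2 and 5 genes 1.5-fold lower. Their summed level with Bic/4AP was 81.4% of the untreated level in shRNA cultures and 73.1% in vector cultures. The Kcna genes, which encode low-threshold channels of the axon that 4-aminopyridine blocks, stood at 73.0% of their untreated sum in shRNA cultures and 61.3% in vector cultures. Kcna2, an axonal subunit, lies on chromosome 3 from 106904485 to 106909797 (mm9) and stood at 1.25 FPKM (bounds 1.07 to 1.43) with Bic/4AP and 2.86 (2.59 to 3.13) untreated in shRNA cultures, and at 2.9 (2.62 to 3.18) with Bic/4AP and 6.01 (5.62 to 6.41) untreated in vector cultures. The bounds of the Bic/4AP and untreated libraries did not overlap in either kind of culture, and the FPKM ratios were 0.436 in shRNA and 0.482 in vector cultures. Its level with both hairpin and Bic/4AP was the lowest of the 4. Kcna1, its frequent partner in the same channels, stood at 8.73 FPKM with Bic/4AP and 10.3 untreated in shRNA cultures, and at 12.2 with Bic/4AP and 17.8 untreated in vector cultures. Kcna4, which gives fast-inactivating current, stood at 4.08 FPKM with Bic/4AP and 5.26 untreated in shRNA cultures, and at 2.7 with Bic/4AP and 4.83 untreated in vector cultures. Kcna1 had differences of -0.22 in shRNA and -0.50 in vector cultures, and Kcna4 had differences of -0.30 in shRNA and -0.65 in vector cultures. Kcna6 was the other Kcna gene 1.5-fold lower in vector cultures (-0.75), and its difference in shRNA cultures was -0.58.

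The remaining voltage-gated pores were lower by smaller amounts, with a few exceptions. Kcnc4, of the Kcnc subfamily whose channels repolarize fast-spiking cells and are also blocked by 4-aminopyridine, stood at 9.37 FPKM with Bic/4AP and 15.3 untreated in shRNA cultures, and at 8.08 with Bic/4AP and 13.3 untreated in vector cultures. Its responses, -0.65 in shRNA and -0.66 in vector cultures, were nearly equal. Kcnd3, a pore of the dendritic A-type current and the most abundant voltage-gated member by mean level, stood at 17.1 FPKM with Bic/4AP and 19.7 untreated in shRNA cultures, and at 16.3 with Bic/4AP and 19.1 untreated in vector cultures, and Kcnd1 at 1.83 FPKM with Bic/4AP and 2.8 untreated in shRNA cultures, and at 2.87 with Bic/4AP and 3.76 untreated in vector cultures. The 3 Kcnd genes had differences from -0.42 to -0.19 in shRNA cultures and from -0.30 to -0.22 in vector cultures.

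The Kcnq genes encode the M-current, which limits repetitive firing, and the Kcnh genes a family that includes the ether-a-go-go channels. Kcnq5, the most abundant Kcnq gene, stood at 7.57 FPKM with Bic/4AP and 9.75 untreated in shRNA cultures, and at 10.4 with Bic/4AP and 14.4 untreated in vector cultures. Kcnq3 was 1.5-fold lower in vector cultures (-0.62) but had overlapping bounds and a difference of -0.09 in shRNA cultures. Kcnh3, the most abundant Kcnh gene, stood at 14.9 FPKM with Bic/4AP and 18.5 untreated in shRNA cultures, and at 12.4 with Bic/4AP and 16.9 untreated in vector cultures. Kcnh1 stood at 2.84 FPKM with Bic/4AP and 2.53 untreated in shRNA cultures, and at 3.95 with Bic/4AP and 4.43 untreated in vector cultures. Its bounds with Bic/4AP and untreated overlapped in both kinds of culture, which does not by itself show that the levels were equal.

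The 7 modifier subunits do not form channels alone but join Kcnb pores and alter their gating. As a role they had the lowest medians with Bic/4AP, and their summed level was 62.0% of the untreated level in shRNA cultures and 53.2% in vector cultures. In shRNA cultures 3 of 7 were 1.5-fold lower and in vector cultures 5 of 7. Kcng1, on chromosome 2 from 168087198 to 168094831, stood at 3.3 FPKM (bounds 2.94 to 3.67) with Bic/4AP and 8.15 (7.59 to 8.71) untreated in shRNA cultures, and at 3.67 (3.28 to 4.07) with Bic/4AP and 9.67 (9.05 to 10.3) untreated in vector cultures. It had the most negative response of any member in both, -1.09 in shRNA and -1.19 in vector cultures, and the Bic/4AP and untreated libraries did not overlap. Kcnv1 stood at 2.63 FPKM (bounds 2.4 to 2.86) with Bic/4AP and 6.18 (5.84 to 6.53) untreated in shRNA cultures, and at 3.06 (2.81 to 3.32) with Bic/4AP and 6.53 (6.17 to 6.88) untreated in vector cultures. Here too both Bic/4AP values lay below both untreated ones, with bounds apart. Kcns2, the most abundant Kcns gene, stood at 1.85 FPKM with Bic/4AP and 3.3 untreated in shRNA cultures, and at 1.91 with Bic/4AP and 3.57 untreated in vector cultures, and Kcns1 at 1.48 FPKM with Bic/4AP and 2.42 untreated in shRNA cultures, and at 0.801 with Bic/4AP and 1.86 untreated in vector cultures. Of this pair, Kcns1 had bounds apart between shRNA and vector cultures in both states, with the shRNA values the higher ones, and Kcns2 had overlapping ones. Kcnf1 was the exception among modifiers, at 6.35 FPKM with Bic/4AP and 5.25 untreated in shRNA cultures, and at 5.33 with Bic/4AP and 6.19 untreated in vector cultures. Its difference was 0.23 in shRNA and -0.18 in vector cultures.

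**Figure D3:**
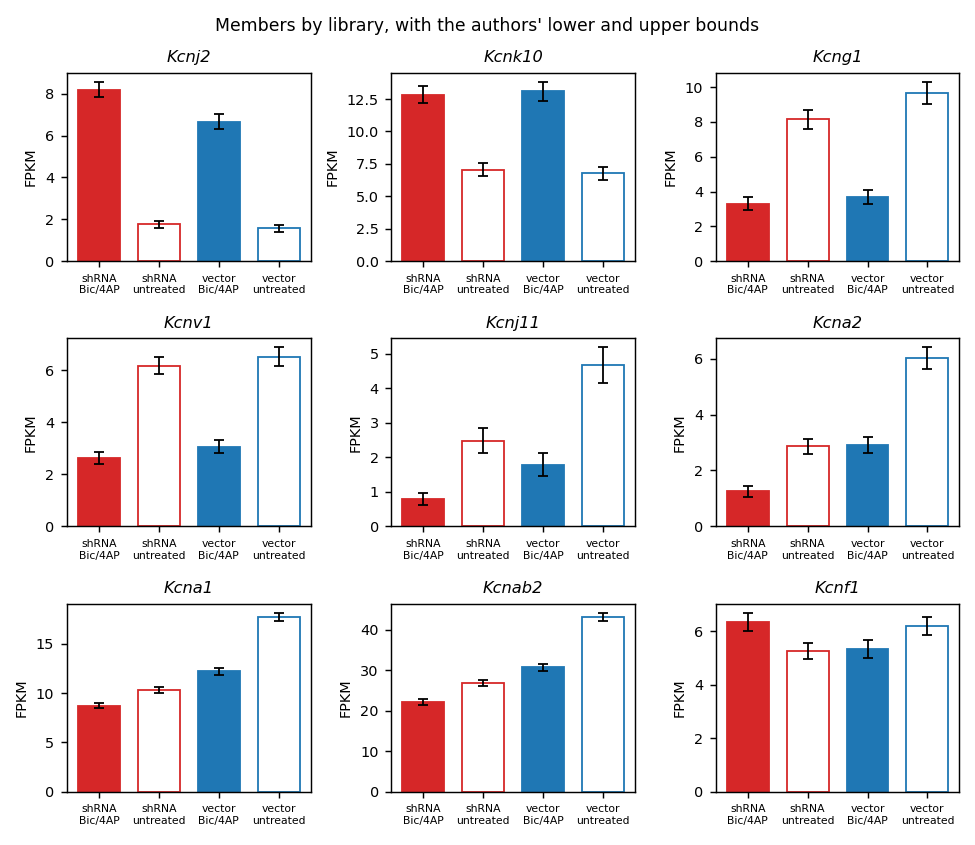
FPKM of 9 potassium channel genes in the 4 libraries, with bars from 0 and whiskers at the authors' lower and upper bounds; red is shRNA, blue is vector, filled is Bic/4AP and open is untreated. Kcnj2 and Kcnk10 are high in both Bic/4AP libraries, Kcng1 and Kcnv1 low in both, Kcnj11 and Kcna2 lowest with hairpin and Bic/4AP together, and Kcnf1 changes order between the cultures.

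Accessory subunits bind pore subunits from the cytoplasm or the membrane and alter their traffic and inactivation. Of the 9, 7 lay below 0 with Bic/4AP in shRNA cultures and 8 in vector cultures, with medians of -0.16 and -0.49. None was 1.5-fold lower in shRNA cultures and 3 were in vector cultures, Kcnmb4, Kcnip2 and Kcnab3. Kcnab2, a beta subunit of Kcna channels, stood at 22.2 FPKM with Bic/4AP and 26.8 untreated in shRNA cultures, and at 30.7 with Bic/4AP and 43.2 untreated in vector cultures. Kcnip2, a calcium-binding partner of Kcnd channels, stood at 18.7 FPKM with Bic/4AP and 23.8 untreated in shRNA cultures, and at 23.6 with Bic/4AP and 36.5 untreated in vector cultures, and Kcnmb4, the neuronal beta subunit of the large-conductance calcium-activated channel, at 16.3 FPKM with Bic/4AP and 21.1 untreated in shRNA cultures, and at 15.8 with Bic/4AP and 25.4 untreated in vector cultures. For each of these 3 the bounds with Bic/4AP and untreated were apart in both kinds of culture, and the Bic/4AP value was the lower one. Kcne1l, of the Kcne family of small membrane subunits, stood higher with Bic/4AP, at 33.6 FPKM with Bic/4AP and 31.3 untreated in shRNA cultures, and at 32.7 with Bic/4AP and 24.2 untreated in vector cultures. The vector untreated library was the low one for Kcne1l, and the difference was 0.42 in vector cultures but 0.10, with overlapping bounds, in shRNA cultures.

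The 7 calcium- or sodium-activated channel genes had medians of -0.18 in shRNA and -0.38 in vector cultures with Bic/4AP, with no gene 1.5-fold apart in either. Kcnma1, the pore of the large-conductance channel, stood at 8.13 FPKM with Bic/4AP and 8.69 untreated in shRNA cultures, and at 8.12 with Bic/4AP and 10.3 untreated in vector cultures. Kcnn2, a small-conductance channel of the afterhyperpolarization, stood at 10.7 FPKM with Bic/4AP and 12.2 untreated in shRNA cultures, and at 10.6 with Bic/4AP and 15.8 untreated in vector cultures, and Kcnt1, a sodium-activated channel, at 3.9 FPKM with Bic/4AP and 5.43 untreated in shRNA cultures, and at 3.4 with Bic/4AP and 5.44 untreated in vector cultures. In Kcnma1 and Kcnn2 the vector untreated library was the highest of the 4. Kcnn3 was near 0 in both (0.02 and 0.04, bounds overlapping). Kcnn4, the intermediate-conductance channel best known from blood and immune cells, was near the limit of selection at 0.593 FPKM with Bic/4AP and 1.14 untreated in shRNA cultures, and at 0.529 with Bic/4AP and 0.734 untreated in vector cultures.

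The 10 inward rectifiers had medians of -0.13 in shRNA and -0.39 in vector cultures with Bic/4AP, and held the member with the highest response, Kcnj2. Kcnj2, which encodes the strong inward rectifier Kir2.1 and holds the membrane near the potassium equilibrium potential, lies on chromosome 11 from 110927478 to 110938139 and stood at 8.19 FPKM (bounds 7.82 to 8.55) with Bic/4AP and 1.76 (1.6 to 1.93) untreated in shRNA cultures, and at 6.67 (6.33 to 7.01) with Bic/4AP and 1.57 (1.41 to 1.73) untreated in vector cultures. The Bic/4AP values were 4.64 times the untreated ones in shRNA cultures and 4.24 times in vector cultures. Both Bic/4AP libraries lay far above both untreated ones. Kcnj11, the pore of the ATP-sensitive channel that couples metabolism to excitability, lies on chromosome 7 from 53352493 to 53356134 and stood at 0.79 FPKM (bounds 0.622 to 0.958) with Bic/4AP and 2.48 (2.11 to 2.85) untreated in shRNA cultures, and at 1.78 (1.44 to 2.12) with Bic/4AP and 4.66 (4.14 to 5.18) untreated in vector cultures. Its FPKM ratios with Bic/4AP were 0.318 in shRNA and 0.383 in vector cultures, and the 4 bounds put shRNA with Bic/4AP lowest and vector untreated highest. Kcnj4, another strong rectifier of neurons, stood at 15.8 FPKM with Bic/4AP and 22.2 untreated in shRNA cultures, and at 12.9 with Bic/4AP and 22.8 untreated in vector cultures. It had differences of -0.46 in shRNA and -0.77 in vector cultures, so that it and Kcnj2 lay on opposite sides of 0. The G protein-activated Kcnj3, Kcnj6 and Kcnj9 had differences of 0.02, 0.04 and -0.55 in shRNA cultures and -0.33, -0.44 and -0.66 in vector cultures. Kcnj10 differed by 0.06 and 0.12, beside a median of 0.08 and 0.07 for the 8 astrocyte markers. Kcnj13, which is known from choroid plexus, had overlapping bounds in every comparison, at 0.997 FPKM with Bic/4AP and 1.11 untreated in shRNA cultures, and at 0.926 with Bic/4AP and 0.716 untreated in vector cultures.

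The 8 tandem-pore genes had the medians closest to those of all genes with Bic/4AP, -0.08 in shRNA and -0.20 in vector cultures. Kcnk10, which encodes the mechanically and lipid-gated leak channel TREK-2, lies on chromosome 12 from 99672204 to 99816150 and stood at 12.8 FPKM (bounds 12.2 to 13.5) with Bic/4AP and 7.05 (6.55 to 7.54) untreated in shRNA cultures, and at 13.1 (12.4 to 13.8) with Bic/4AP and 6.79 (6.29 to 7.28) untreated in vector cultures. Both Bic/4AP libraries were above both untreated ones, with FPKM ratios of 1.82 in shRNA and 1.93 in vector cultures. Kcnk2, its close relative TREK-1, had differences of -0.17 in shRNA and -0.18 in vector cultures, with the Bic/4AP value the lower one. Kcnk5, an alkaline-activated leak channel, was weakly expressed at 0.91 FPKM with Bic/4AP and 0.625 untreated in shRNA cultures, and at 1.09 with Bic/4AP and 0.492 untreated in vector cultures. Its bounds were apart in both with the Bic/4AP value higher, but it entered the members only through the vector Bic/4AP library. Kcnk12 stood at 1.95 FPKM with Bic/4AP and 2.12 untreated in shRNA cultures, and at 2.39 with Bic/4AP and 4.02 untreated in vector cultures. Its vector untreated library was the highest, and the bounds of the 2 shRNA libraries overlapped.

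The promoters of the member with the largest response upward and of the voltage-gated member lowest with the hairpin are shown to set their CpG content side by side, since Polycomb complexes are known to favour CpG-rich promoters. The RefSeq promoter table (GRCm38.p6) gave entries for 44 of the 63 members by symbol. Each promoter has 300 bases, 250 before and 50 after the annotated start, written 5′ to 3′ on the gene's strand, with CpG dinucleotides in capitals. Kcnj2 lies on the plus strand at chr11:111065914-111066213 and Kcna2 on the plus strand at chr3:107101317-107101616.
Kcnj2: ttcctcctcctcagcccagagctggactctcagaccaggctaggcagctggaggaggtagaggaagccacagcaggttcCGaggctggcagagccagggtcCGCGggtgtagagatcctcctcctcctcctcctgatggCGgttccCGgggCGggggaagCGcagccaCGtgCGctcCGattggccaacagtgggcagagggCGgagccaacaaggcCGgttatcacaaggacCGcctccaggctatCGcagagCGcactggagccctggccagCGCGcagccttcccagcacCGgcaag
Kcna2: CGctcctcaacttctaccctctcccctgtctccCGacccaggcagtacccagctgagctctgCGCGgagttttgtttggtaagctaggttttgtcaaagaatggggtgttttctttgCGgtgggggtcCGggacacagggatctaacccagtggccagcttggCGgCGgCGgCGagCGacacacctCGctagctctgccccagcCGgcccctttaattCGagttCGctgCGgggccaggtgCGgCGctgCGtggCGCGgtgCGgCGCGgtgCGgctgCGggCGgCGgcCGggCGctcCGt
The Kcnj2 promoter held 18 CpG and the Kcna2 promoter 31, beside a median of 10.5 over the 66 promoter entries of members and 7 over all 32851 promoters. The quartiles were 5 and 21.75 for members and 3 and 20 for all promoters, so Kcnj2 lay between them and Kcna2 above. The 66 entries belong to 44 members, some of which have several. The palindromic cyclic AMP response element, TGACGTCA, was in a promoter of 0 of 44 members and of 2.03% of all 27025 genes with an entry (1.79% of single promoters). The AP-1 element TGANTCA, searched on both strands, was in a promoter of 2 of 44 members (4.55%), Kcnip3 and Kcnk2, and of 8.97% of all genes (7.81% of single promoters). Neither element was in the windows of Kcnj2 or Kcnk10. Any part of CpG content or of these elements in the differences was not tested.

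The hairpin was next set against the vector. With Bic/4AP the members lay about evenly around 0, and untreated they lay mostly below it. The median difference was -0.03 with Bic/4AP (all genes 0.03) and -0.22 untreated (all genes 0.05). With Bic/4AP 33 of 63 members lay below 0 and 30 above, against 43.6% and 56.4% of all genes. Untreated, 43 lay below 0 and 20 above, against 41.2% and 58.8%. With Bic/4AP 2 members were 1.5-fold lower, 3.17% of members against 2.10% of all genes, so a share near that of all genes. Untreated, 9 were 1.5-fold lower, 14.3% of members against 2.90% of all genes. With a pseudocount of 5 these counts were 0 with Bic/4AP and 1 untreated, and no share of all genes was computed at that pseudocount. No member was 1.5-fold higher in either state, beside 1.69% of all genes with Bic/4AP and 2.70% untreated, and none was 2-fold apart. Of all genes 0.186% were 2-fold higher and 0.52% 2-fold lower with Bic/4AP, and 0.409% and 0.661% untreated. The bounds were apart with the shRNA value lower for 15 members with Bic/4AP (20.9% of all genes) and for 34 untreated (22%), and with the shRNA value higher for 11 (28.2%) and 8 (32.8%) in the same order. These comparisons share no library with each other. In both states 28 members were lower (44.4%) and 15 higher (23.8%), against 31.8% and 47.0% of all genes.

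**Figure D4:**
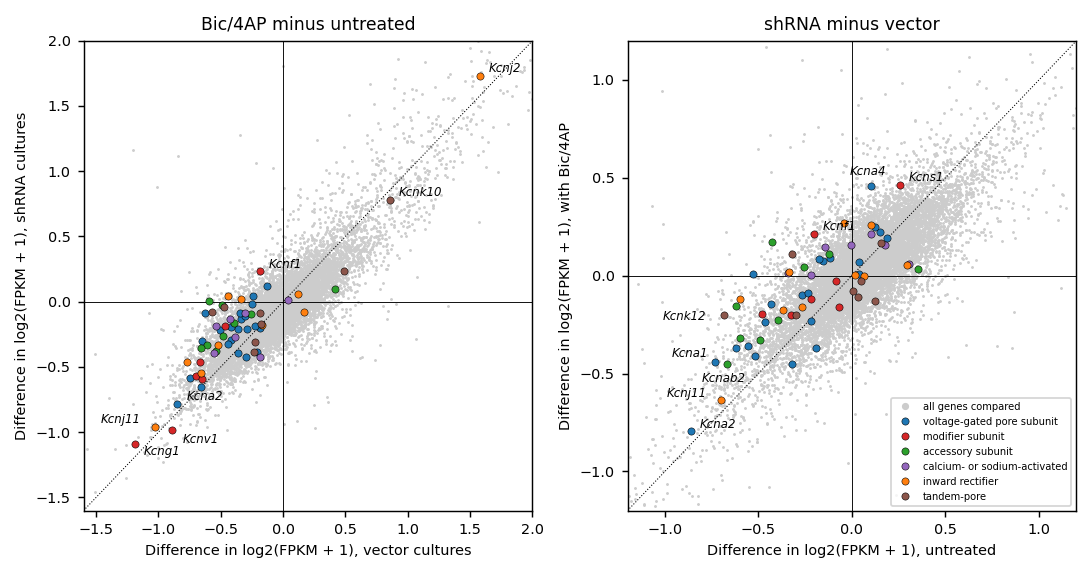
Each point is a gene, grey for all 13457 genes and coloured by role for the 63 potassium channel genes. The axes are log2(FPKM + 1) differences and leave out grey genes lying farther away. Outside the left panel lay all 10 immediate-early genes of the check list, the lowest at 2.94 in vector cultures. On the left, Bic/4AP minus untreated in shRNA cultures (vertical) is plotted against vector cultures (horizontal); on the right, shRNA minus vector with Bic/4AP (vertical) against untreated (horizontal). Kcnj2 (1.73 and 1.58) and Kcnk10 lie top right on the left panel, and Kcna2 (-0.79 and -0.86) lies lowest among members on the right panel.

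The 9 members that were 1.5-fold lower with the hairpin untreated were Kcna2, Kcna1, Kcnj11, Kcnk12, Kcnab2, Kcnip3, Kcnh1, Kcnip2 and Kcnj6. Kcna2 and Kcnj11 were also the 2 that were 1.5-fold lower with Bic/4AP, an overlap that was not counted over all genes. Kcna2 differed by -0.79 with Bic/4AP and -0.86 untreated, and its shRNA level was 0.431 of the vector level with Bic/4AP and 0.476 untreated. Kcnj11 differed by -0.64 with Bic/4AP and -0.70 untreated, with level ratios of 0.443 and 0.533 in that order. In both genes the bounds were apart in both states. Kcna1 differed by -0.44 with Bic/4AP and -0.73 untreated, and Kcnab2, whose product binds Kcna channels, by -0.45 with Bic/4AP and -0.67 untreated. Kcnk12 differed by -0.20 with Bic/4AP and -0.69 untreated, with overlapping bounds in the Bic/4AP state. Kcnd1 differed by -0.45 with Bic/4AP and -0.32 untreated. The accessory subunits had the lowest role median untreated, -0.43, with 8 of 9 below 0, and a median of -0.15 with Bic/4AP. Their summed level with the hairpin was 87.9% of the vector level with Bic/4AP and 77% untreated.

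Some members stood higher with the hairpin. Kcns1 differed by 0.46 with Bic/4AP and 0.26 untreated, with bounds apart in both states, and Kcna4 by 0.46 with Bic/4AP and 0.10 untreated, with overlapping bounds untreated. Kcnh3 differed by 0.25 with Bic/4AP and 0.12 untreated, Kcnc4 by 0.19 with Bic/4AP and 0.19 untreated and Kcnd2 by 0.22 with Bic/4AP and 0.15 untreated, each with bounds apart in both states. Kcnj2 differed by 0.26 with Bic/4AP and 0.10 untreated, so it was slightly higher with the hairpin under Bic/4AP and had overlapping bounds untreated. Kcnj4 differed by 0.27 with Bic/4AP and -0.04 untreated, with overlapping bounds untreated. Kcne1l, Kcnn4 and Kcnj13 were among the 5 largest differences untreated, at 0.35, 0.30 and 0.30, and the bounds of Kcnn4 and Kcnj13 overlapped. Kcnn4 and Kcnj13 entered the members only through the shRNA untreated library, so the filter itself favoured a higher shRNA value for them here. All 7 calcium- or sodium-activated genes lay above 0 with Bic/4AP, with a median of 0.15 and the lowest, Kcnma1, at 0.0025, while untreated 3 of 7 did and the median was -0.00.

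Markers of cell types differed between the same libraries. The summed level of the 12 inhibitory neuron markers was 844 FPKM with the hairpin and 1182 with the vector under Bic/4AP, and 576 with the hairpin and 1186 with the vector untreated. The 8 excitatory neuron markers summed to 420 with the hairpin and 481 with the vector under Bic/4AP, and to 478 and 662 untreated in that order. Slc17a7, the vesicular glutamate transporter, carried much of this sum, with 149.8 FPKM with the hairpin and 206 with the vector under Bic/4AP. The median difference of the 8 was 0.11 with Bic/4AP, with 5 of 8 higher with the hairpin, so most of them lay on the other side of 0 from the sum, and -0.23 untreated, with 8 of 8 lower. Of the inhibitory markers 10 of 12 were lower with Bic/4AP and 11 of 12 untreated, with medians of -0.33 and -0.51. The 8 astrocyte markers summed to 3137 with the hairpin and 3109 with the vector under Bic/4AP, and to 2790.1 and 2900.1 untreated. The 8 microglia markers summed to 14.6 with the hairpin and 31.6 with the vector under Bic/4AP, and to 15.7 and 33.9 untreated. Of the 6 that passed the filter, 4 were lower with Bic/4AP and 5 untreated, with medians of -0.38 and -0.40. On the log2(FPKM + 1) scale C1qa (4.66 with the hairpin and 14.2 with the vector, untreated) and Tyrobp (3.17 and 10.5) differed most. By FPKM ratio the weakly expressed Itgam did, at 0.240 untreated (0.230 with the hairpin and 0.955 with the vector). P2ry12 was higher with the hairpin in both states. The part of these shifts in the potassium channel differences was not tested. The oligodendrocyte lineage, fibroblast and endothelial and mural lists summed to between 14.3 and 90.2 FPKM in every library, and 1 endothelial or mural marker was at 0 in the vector Bic/4AP library.

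The labels give the hairpin's target as a sequence of 21 bases. Its first 18 bases are in a Kdm6b transcript of GENCODE M21 and the last 3 are not, and it is shown with the matching bases in capitals.
Labelled sequence: CTGTTCTTGAGGGACAAActc
A hairpin can also act through its seed, bases 2 to 8 of its antisense strand, on other transcripts, so members were searched in their longest annotated 3′ UTR for the complement of that seed. Taken from the 18 matching bases the word is GGGACAA, and it was in the 3′ UTR of 14 of 63 members (22.2%) and of 1097 of 11650 genes with a 3′ UTR (9.42%). Members with the word had longer 3′ UTRs, with a median of 5207 bases against 1777 without it. Over all genes these medians were 2491 and 1153, both shorter than those of members. The shares with the word were not adjusted for length. Sites are shown over 18 bases, with the word in capitals, for the members lowest with the hairpin and for a pair near 0 untreated (Kcnk9 and Kcnk10).
Kcna2, first site: tggggtggaaGGGACAAa
Kcna2, second site: ctgggggtcgGGGACAAt
Kcnj11, first site: ggtctggtgtGGGACAAg
Kcnj11, second site: gtgaggcaggGGGACAAg
Kcna1: acattagatgGGGACAAt
Kcnk9, first site: ctgcctgcacGGGACAAa
Kcnk10: tggtcccacgGGGACAAc
Over these sites 9 to 11 of the 18 bases equal those of the labelled sequence, and 8 do in the second Kcnk9 site, which is not shown. The 7 bases of the word are among them by the search itself, so these numbers do not measure a wider match. Members with the word had a median difference of -0.12 with Bic/4AP and -0.27 untreated, and members without it 0.01 and -0.19. Over all genes the medians with the word were 0.03 and 0.03, and without it 0.03 and 0.05. With the word, 2 of 14 members were 1.5-fold lower with Bic/4AP and 4 of 14 untreated, and without it 0 of 49 and 5 of 49. Over all genes the shares hardly differed: with the word 1.64% were 1.5-fold lower with Bic/4AP and 3.10% untreated, and without it 2.18% and 2.97%. Taken from all 21 labelled bases the word is ACAAACT. It was in 13 of 63 members (20.6%) and in 13.1% of the 11650 genes, again without adjustment for length. The medians of members were -0.11 with Bic/4AP and -0.23 untreated with this word, and 0.01 and -0.20 without it. Over all genes they were 0.02 and 0.03 with it, and 0.03 and 0.05 without it. The part of either word in the differences was not tested.

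The response to Bic/4AP was also set between the cultures, as the shRNA response minus the vector response. This difference uses all 4 libraries and so shares them with every comparison above. It lay above 0 for 48 of 63 members and below for 15, against 45.1% and 54.9% of all genes, with a median of 0.16 (all genes -0.02). Only Kcnab3, a beta subunit, was 1.5-fold apart (0.60), beside 0.728% of all genes on that side, and no member was 1.5-fold apart on the lower side (0.513%) or 2-fold apart (0.111% of all genes higher and 0.119% lower). Kcnab3 stood at 2.58 FPKM with Bic/4AP and 2.57 untreated in shRNA cultures, and at 2.19 with Bic/4AP and 3.81 untreated in vector cultures. The next were Kcnq3 (0.54), Kcnk12 (0.48) and Kcnj6 (0.48), in each of which the vector untreated library was the highest of the 4 and the other 3 lay closer together. On the other side were Kcne1l (-0.32), whose vector untreated library was the lowest, and Kcnk5 (-0.25). The value of 1 library, vector untreated, therefore enters both the lower levels with Bic/4AP in vector cultures and the lower levels with the hairpin untreated, and no replicate of it was available here.

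Genes that work with potassium channels were described from lists. With Bic/4AP 65.2% of all genes lay below 0 in shRNA cultures and 59.4% in vector cultures. Of 18 listed genes whose products bind or place voltage-gated channels, 17 passed the filter. Of these, 14 lay below 0 with Bic/4AP in shRNA cultures and 16 in vector cultures, with medians of -0.21 and -0.33. Amigo1, a membrane adhesion protein, was the lowest at -0.60 and -0.68 and the only one of them 1.5-fold lower in shRNA cultures. With the hairpin their medians were 0.02 with Bic/4AP and -0.08 untreated, with no gene 1.5-fold apart, and Cntn2, an axonal adhesion protein near Kcna channels, was the lowest at -0.42 and -0.53. Of 13 listed genes for partners of other potassium channels, 10 passed the filter. With Bic/4AP 6 of these 10 lay below 0 in shRNA cultures and 7 in vector cultures, near the shares of all genes. Their medians were -0.16 and -0.29, and the extremes were Lrrc55 (-0.36 and -0.74) and Kctd8 (0.48 and 0.30). Lrrc55 is an accessory subunit of the large-conductance channel and Kctd8 of GABA-B receptors. With the hairpin their medians were 0.06 with Bic/4AP and -0.12 untreated. Kctd12, also a GABA-B receptor subunit, was the highest in both states, at 0.47 and 0.46, and the lowest were Rgs7 with Bic/4AP (-0.35) and Gpr158 untreated (-0.61). The 4 Hcn cation channel genes, relatives of the voltage-gated potassium channels, lay below 0 with Bic/4AP in both kinds of culture, with medians of -0.28 in shRNA and -0.37 in vector cultures. Hcn3 differed with the hairpin by -0.73 with Bic/4AP and -1.05 untreated, and Hcn4 by -0.01 and 0.11. The 10 sodium pump and chloride cotransporter genes had medians of 0.02 in both kinds of culture with Bic/4AP and -0.00 in both states with the hairpin, and none was 1.5-fold apart. The lowest with Bic/4AP was Slc12a5, the neuronal potassium-chloride exporter, at -0.33 in shRNA and -0.45 in vector cultures, and the highest Atp1b3, a pump subunit, at 0.26 and 0.41. With the hairpin the highest untreated was Slc12a7, another potassium-chloride cotransporter, at 0.49.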

How the data were processed

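PolyA RNA was sequenced in 4 libraries with the Illumina TruSeq kit, per the labels' protocols, 1 library per condition. Tools in the submitters' processing notes are Cufflinks 2.0.2, TopHat2 2.0.8b and CASAVA 1.8, with coordinates on mm9; their settings and the annotation are not given in the sources used here. The deposited tables hold FPKM with a lower and an upper bound for 22878 rows, as computed by the authors. The bounds, not read totals, gave the precision of each value.

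Rows were joined by symbol, start site and locus, and FPKM summed per symbol, although each Kcn symbol has 1 row. Symbols failed in any library and small RNA genes recognised by symbol were left out. FPKM were used without further scaling, with a pseudocount of 1 and an FPKM of at least 1 in 1 library. Start positions, which count from 0 in the tables (for 541 of 551 microRNA genes, end minus start was the stated length), are given from 1. Named genes were those 2-fold apart, the 5 largest and 5 smallest members of each comparison and the most abundant of each subfamily, and other members were chosen after their values were seen. Some genes that this rule names are not reported here by name, but they enter the counts, medians and sums. The members and lists were chosen with earlier results of these data known. Promoters came from RefSeq (GRCm38.p6) and 3′ UTRs, of at least 50 bases, from GENCODE M21, matched by symbol; no coordinates were moved between builds. Alternatives were other pseudocounts, filters, scalings and row choices, and, added after the data were seen, leaving out overlapping loci and the second hairpin word. Calculations used Python 3.11.15, pandas 2.3.3 and numpy 2.4.6, and the calculations were tested on simulated data.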

Additional observations from a re-analysis of the deposited data

Results flagged for a closer look

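Kcnf1, a modifier subunit gene, was the only member whose authors' bounds were apart in opposite directions under the same contrast. Its difference with Bic/4AP was 0.23 in shRNA cultures and -0.18 in vector cultures. Read the other way, its difference with the hairpin was 0.22 with Bic/4AP and -0.20 untreated. The same 4 libraries give both readings. The difference between the responses was not tested, since each condition has 1 library.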

How the results depend on the processing

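No paired analysis was possible because each condition has 1 library and the labels give no replicate numbers, and no library could be left out. Shifts over 0.1 in a median or over 1.5 times in a count are listed here. With a pseudocount of 5 the median Bic/4AP difference in vector cultures was -0.22, and 1.5-fold lower members numbered 1 with Bic/4AP in shRNA cultures and 2 in vector cultures, and with the hairpin 0 with Bic/4AP and 1 untreated, while 1 member was 1.5-fold higher with Bic/4AP in shRNA cultures and 0 in the difference of responses. With a pseudocount of 0.1 the lower members numbered 14 with Bic/4AP in shRNA cultures, and with the hairpin 4 with Bic/4AP and 14 untreated. On the higher side there were then 1 with the hairpin under Bic/4AP and 5 in the difference of responses. Without a filter on low values the medians were -0.24 for Bic/4AP in vector cultures and -0.061 for the hairpin untreated. With an FPKM of at least 5, 40 members were compared, the hairpin median with Bic/4AP took the other sign (0.00387), lower members with the hairpin numbered 1 with Bic/4AP and 5 untreated, and 0 were higher in the difference of responses. A larger pseudocount shrinks differences of weak genes by construction, and that filter leaves fewer genes. Shares and medians of all genes were not computed under these pseudocounts and filters, so the member values have no background beside them. Median-ratio, upper-quartile and common-sum scaling, non-overlapping bounds, the highest row kept, and leaving out the 9 members with overlapping loci, added after the data were seen, kept every member median and count within those limits. No named member 1.5-fold apart changed sign under the alternatives run. Pseudocounts and filters cannot change a sign, and the row choice changes nothing because each Kcn symbol has 1 row. Only the scalings could have changed one, so this says little about other processing. The tables give no read totals, so depth is known only through the bounds.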
